A study of Mus musculus with 12 samples.

Results

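The genes described here encode the nuclear subunits of the oxidative phosphorylation machinery of mitochondria, together with the complex I assembly factors that share their name stem. They were taken as the gene symbols that start with Nduf, Cox4 to Cox8, Uqcr or Atp5, or that read Sdha, Sdhb, Sdhc or Sdhd, and their transcripts were summed per gene. The rule found 92 genes, with 146 transcripts, among 32699 symbols: 38 of complex I, 7 complex I assembly factors (Ndufaf), 4 of complex II, 8 of complex III, 18 of complex IV and 17 of complex V. RNA was measured in mouse splenic B cells labelled KO or WT for Chd4, which encodes the motor subunit of a chromatin remodelling complex. Cells were either stimulated for 48 hr with 10 µg/ml LPS, a bacterial lipid that activates B cells, with 25 ng/ml IL-4, a cytokine that promotes class switching, or taken at 0 hr. The 4 groups had 3 libraries each: KO 48 hr (replicates 10 to 12), WT 48 hr (7 to 9), KO 0 hr (4 to 6) and WT 0 hr (1 to 3). No group was held for 48 hr without LPS and IL-4, so the part of stimulation cannot be told apart from that of time. Strain, age, sex, the means of deleting Chd4 and the number of animals per library are not given in the sources used here. P-values therefore describe the spread between these libraries, which may be technical.

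Complexes I and II feed electrons into coenzyme Q from NADH and succinate, complex III passes them to cytochrome c, and complex IV hands them to oxygen. Complexes I, III and IV pump protons across the inner membrane, and complex V uses that gradient to make ATP. Most subunits are encoded in the nucleus and imported, while a small set comes from mitochondrial DNA. Resting B cells are small and slow in metabolism, and activation by LPS is known to start growth, division and a large increase in mitochondrial activity. The mitochondrially encoded subunits were not analysed here.

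Levels are given as CPM (a gene's share of a library's counts, on the usual scale) on library sizes scaled by edgeR's TMM factors, and a difference was called at an adjusted p below 0.05 in edgeR's quasi-likelihood test over 19125 genes. Of the 92 genes, 88 passed the filter on low counts. Ndufa4l2, Cox4i2, Cox8b and Cox8c did not pass, with at most 0.363 CPM in any library. A further 4 tested genes, Cox6a2, Cox6b2, Cox7a1 and Cox7b2, stayed below 5 CPM, so 84 genes carried nearly all the signal. Exons of 25 of the 92 genes overlap another gene, mostly on the opposite strand, and the kit does not record strand, so reads of such pairs cannot be told apart. Among the members named below this holds for Atp5a1, Atp5j, Atp5o, Cox5a, Cox6a2, Ndufa13, Ndufa4l2, Ndufaf3, Ndufb2, Ndufb8, Ndufb11, Ndufs1, Ndufs3, Uqcrb and Uqcrc2. Salmon, which the submitters' notes name, splits reads among near-identical copies, so values of genes with close copies are uncertain.

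The libraries held 39 M to 53.2 M counts. All 7 B cell markers were present in every group, at a summed level of 5408 to 6537 CPM in KO 48 hr, 5823 to 6400 in WT 48 hr, 7023 to 9428 in KO 0 hr and 6794 to 8405 in WT 0 hr libraries. Chd4 RNA was at 38.8 to 74.7 CPM in KO 48 hr against 96.1 to 123 CPM in WT 48 hr libraries, but at 70.6 to 100 CPM in KO 0 hr against 68.1 to 99.4 CPM in WT 0 hr libraries, so KO below means labelled KO. Xist was at 0.856 to 1.59 CPM in the KO libraries against 75.4 to 293 CPM in the WT libraries, while the Y-linked Ddx3y was at 91.8 to 139 CPM in the KO and 20.8 to 28.3 CPM in the WT libraries. The WT libraries thus held RNA of both genes, the sexes were not balanced between genotypes, and their part cannot be told apart from that of genotype. Replicates 6 and 12 of KO lay nearer to WT than the other KO libraries in Cox6b2, Ndufaf7 and Lck, and results that rest on them are given with and without them. The spread between replicates was wider in KO, with edgeR's biological coefficient of variation at 23.9% in KO 48 hr and 14.3% in WT 48 hr, and at 31.1% in KO 0 hr and 17.6% in WT 0 hr.

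The start regions of 4 members are shown because they stand at the ends of the range of change over time described below. Ndufc2 had the largest rise among the members at 5 CPM or more in WT, Sdhd and Sdha are the complex II genes with the largest and the smallest rise, and Atp5sl is the member at that level that fell. Each window runs from 250 bases before to 50 bases after the start in RefSeq's GRCm38.p6 annotation, 5′ to 3′ on the gene's own strand. Capitals mark matches on either strand to GCGCA followed by any base and GCGC (NRF1), CCGGAAG (GABP, an ETS factor), AANATGGCG (YY1) and CCAAT. They lie at chr7:97399753-97400052 (plus strand) for Ndufc2, chr9:50603800-50604099 (minus strand) for Sdhd, chr13:74350191-74350490 (minus strand) for Sdha and chr7:25619164-25619463 (plus strand) for Atp5sl, whose RefSeq symbol is Dmac2.
Ndufc2: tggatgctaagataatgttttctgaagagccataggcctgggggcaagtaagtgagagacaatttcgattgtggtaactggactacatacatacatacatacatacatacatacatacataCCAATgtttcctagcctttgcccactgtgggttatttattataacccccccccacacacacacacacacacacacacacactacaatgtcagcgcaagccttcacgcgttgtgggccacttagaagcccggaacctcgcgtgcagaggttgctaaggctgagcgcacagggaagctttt
Sdhd: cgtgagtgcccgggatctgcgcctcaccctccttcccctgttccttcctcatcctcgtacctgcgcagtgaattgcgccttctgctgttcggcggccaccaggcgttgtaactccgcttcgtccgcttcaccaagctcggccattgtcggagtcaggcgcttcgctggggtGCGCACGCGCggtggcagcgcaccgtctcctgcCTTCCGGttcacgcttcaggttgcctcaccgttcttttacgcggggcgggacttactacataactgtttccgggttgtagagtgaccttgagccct
Sdha: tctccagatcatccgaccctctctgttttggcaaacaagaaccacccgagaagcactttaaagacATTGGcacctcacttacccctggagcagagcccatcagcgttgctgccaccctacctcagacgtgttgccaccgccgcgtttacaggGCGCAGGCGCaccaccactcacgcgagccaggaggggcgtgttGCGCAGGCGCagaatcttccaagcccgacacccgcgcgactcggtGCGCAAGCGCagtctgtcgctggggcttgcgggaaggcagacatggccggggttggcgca
Atp5sl: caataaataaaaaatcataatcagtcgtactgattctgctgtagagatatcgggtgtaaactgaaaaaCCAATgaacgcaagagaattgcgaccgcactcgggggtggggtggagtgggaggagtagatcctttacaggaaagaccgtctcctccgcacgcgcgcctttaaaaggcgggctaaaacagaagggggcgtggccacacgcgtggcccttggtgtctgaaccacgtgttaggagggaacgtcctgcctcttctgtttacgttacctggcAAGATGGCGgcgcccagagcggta

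Of the 4 marked motifs, the Sdhd window shown carried 1 NRF1 and 1 GABP match, and that of Sdha 3 NRF1 matches and a CCAAT match. That of Atp5sl carried a YY1 and a CCAAT match, and that of Ndufc2 only a CCAAT match. Unmarked are 1 SP1 match for Sdhd and 1 E-box for Atp5sl, with letters given below. Another Atp5sl window, not shown, held no CCAAT match. NRF1 and GABP are transcription factors long known to bind promoters of respiratory chain genes. RefSeq gave 82 windows for 76 of the 92 genes, and of these windows 24.4% held the NRF1 letters, against 4.60% of all 32851 windows of that length. The share was 20.7% against 8.86% for GABP and 14.6% against 2.38% for YY1. It was 11.0% against 7.15% for the E-box CACGTG, 42.7% against 35.7% for the SP1 letters GGGCGG, and 42.7% against 37.4% for CCAAT. Both strands were searched for each motif, and no match of one marked motif overlapped another in the 4 windows shown. The 19 tested members with an NRF1 match had a median log2 fold change between 48 hr and 0 hr of 2.13 in KO and 2.33 in WT, against 2.04 in KO and 2.32 in WT for the 56 members with a window and no match. For GABP the medians were 2.29 in KO and 2.53 in WT over 17 members with a match, against 2.04 in KO and 2.28 in WT over 58 without.

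Stimulation for 48 hr was accompanied by higher RNA of nearly the whole set in both genotypes. In KO, 85 of 88 tested members rose and 2 fell (Atp5sl and Cox7b2), and in WT 85 rose and 1 fell (Atp5sl). Of all 19125 genes, 33.0% rose and 37.7% fell in KO, and 33.0% rose and 40.9% fell in WT. The median log2 fold change of the members was 2.05 in KO (4.15-fold) and 2.31 in WT (4.96-fold), while the median over all genes was -0.30 in KO and -0.39 in WT. Every member that rose had all 3 libraries at 48 hr above all 3 at 0 hr. These members were already called higher, and such separation over time was not counted over all genes.

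The size of these changes depended on how libraries were scaled. TMM factors ran from 0.723 to 0.766 at 48 hr and from 1.28 to 1.42 at 0 hr. With library totals in place of TMM, the median over all genes moved to -1.12 in KO and -1.28 in WT, 19.1% of all genes rose and 59.3% fell in KO, and 18.8% rose and 62.4% fell in WT. On that scale 78 members rose and 2 fell in KO with a median of 1.24, and 80 rose and 2 fell in WT with a median of 1.43. Scaling shifts the log2 fold changes of all genes in a contrast by nearly the same amount. The distance between the median of the members and that of all genes therefore had to stay nearly the same. It was 2.35 by both in KO and 2.70 by both in WT, which is no check on the scaling. Atp5s, Cox7a2l, Ndufaf3, Ndufb10 and Sdha were no longer called higher in either genotype on library totals.

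**Figure D1:**
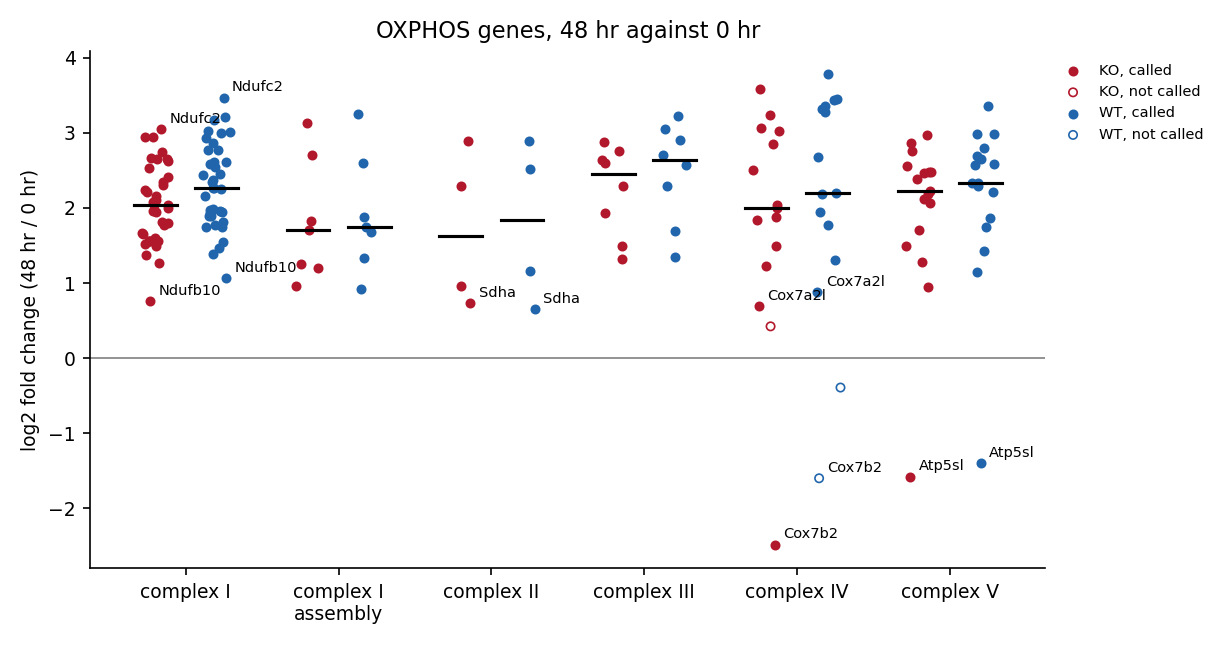
Log2 fold change between 48 hr and 0 hr of each tested member by complex, KO left of WT, with a black line at the median and filled points for adjusted p below 0.05 in edgeR's quasi-likelihood test on TMM scaling. Complex medians lie between 1.63 and 2.64, Sdha, Cox7a2l and Ndufb10 are among the smallest rises and lose or reverse their change on library totals, and Atp5sl fell in both genotypes.

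As a share of all counts in a library, with no scaling between libraries, the 92 genes held 1.79%, 1.89% and 1.72% in KO 48 hr and 1.88%, 1.97% and 1.72% in WT 48 hr libraries. They held 0.838%, 0.678% and 0.753% in KO 0 hr and 0.731%, 0.769% and 0.657% in WT 0 hr libraries. The groups of the 2 times did not overlap in either genotype. In summed CPM the set was at 23957 ± 1374 in KO 48 hr against 5710 ± 633 in KO 0 hr, and at 25278 ± 2154 in WT 48 hr against 5296 ± 653 in WT 0 hr (SD, n = 3 each).

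**Figure D2:**
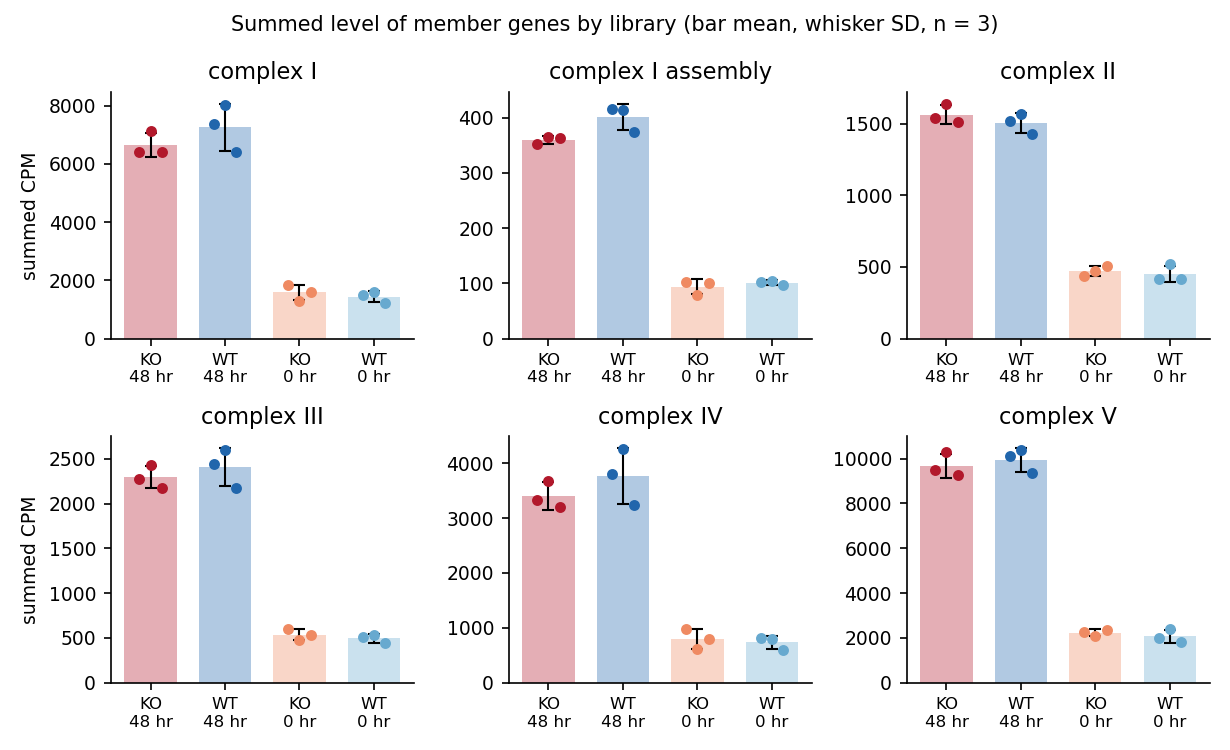
Summed CPM of the members of each complex, with 1 point per library, bars at the group mean and whiskers at 1 SD (n = 3). In every complex each library at 48 hr lies above each library at 0 hr, and the KO and WT points of a time overlap, except for the complex I assembly factors at 48 hr, where KO lies below WT.

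RNA of markers of other cell types also differed between the times. The myeloid marker list (6 of 6 genes present in each group) summed to 14.8 to 35.1 CPM in KO 48 hr against 125 to 361 CPM in KO 0 hr, and to 10.9 to 12.3 CPM in WT 48 hr against 113 to 222 CPM in WT 0 hr libraries. The erythroid list (4 of 6 in the table, none at 0 in any group) summed to 4.80 to 13.3 CPM in KO 48 hr against 278 to 3366 CPM in KO 0 hr, and to 10.6 to 13.4 CPM in WT 48 hr against 596 to 880 CPM in WT 0 hr libraries. Of the others, 5 of 6 T cell markers and all 4 platelet markers fell in both genotypes, and 3 of 4 NK cell markers fell in KO and 4 of 4 in WT. Of the 7 B cell markers, 4 fell and 1 rose in each genotype, and 6 fell on library totals. Of all genes, 37.7% fell in KO and 40.9% in WT with TMM. The part of other cell types in the rise of the members was not tested. In bulk RNA a change in the number of cells and in RNA per cell cannot be told apart.

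Complex I is the entry point for NADH, with core subunits that carry the flavin and iron-sulphur centres and accessory subunits around them. All 37 tested members of complex I rose in both genotypes. The 7 core subunits had a median log2 fold change of 1.56 in KO and 1.74 in WT, and the 29 accessory subunits had 2.04 in KO and 2.34 in WT. Ndufs1, the largest iron-sulphur subunit, was at 329, 354 and 319 CPM in KO 48 hr libraries against 82.9, 84.3 and 92.8 CPM in KO 0 hr libraries. It was at 321, 335 and 317 CPM in WT 48 hr libraries against 74.7, 92.0 and 85.7 CPM in WT 0 hr libraries. The genotypes overlapped at both times and the times did not. Its log2 fold change over time was 1.95 in both KO and WT (SE 0.10 each, adjusted p = 1.4e-09 and 1.2e-09).

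The accessory subunit Ndufb8, whose protein is often used as a gauge of assembled complex I, rose by a log2 fold change of 1.60 in KO and 1.93 in WT.

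Among the core subunits Ndufv2 and Ndufs8 rose further than their neighbours in the same module. Ndufv2, an iron-sulphur subunit of the NADH-binding arm, had a log2 fold change of 2.66 in KO and 2.87 in WT, against 1.56 in KO and 1.55 in WT for Ndufv1, the NADH-binding flavoprotein. Per kilobase of transcript the level of Ndufv2 was 2.41 ± 0.13 times that of Ndufv1 in KO 48 hr against 1.14 ± 0.23 times in KO 0 hr libraries, and 2.62 ± 0.25 times in WT 48 hr against 1.05 ± 0.09 times in WT 0 hr libraries (SD, n = 3). Ndufs8, which passes electrons on towards coenzyme Q, had 2.30 in KO and 2.61 in WT. Ndufs7 and Ndufs3 were the core subunits with the smallest rises, at 1.27 and 1.37 in KO and 1.47 and 1.38 in WT.

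Ndufc2, an accessory subunit of the membrane arm, had the largest rise of complex I. It was at 261, 300 and 266 CPM in KO 48 hr libraries against 41.9, 24.9 and 33.2 CPM in KO 0 hr libraries. It was at 332, 377 and 280 CPM in WT 48 hr libraries against 30.0, 34.3 and 25.0 CPM in WT 0 hr libraries. Every 48 hr library lay above every 0 hr library, and the log2 fold change was 3.05 in KO (SE 0.19, adjusted p = 5.6e-09) and 3.47 in WT (SE 0.19, adjusted p = 1.8e-09). Ndufb2, another subunit of the membrane arm, followed at 2.95 in KO and 3.21 in WT. Ndufa4, which was first purified with complex I and is now assigned to complex IV, rose by a log2 fold change of 2.95 in KO and 3.17 in WT. Its paralogue Ndufa4l2, known as a hypoxia-induced form, held at most 0.130 CPM in any library.

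Ndufb10 rose least among the complex I subunits, at 0.76 in KO and 1.07 in WT. It was at 71.4, 76.9 and 79.7 CPM in KO 48 hr against 53.6, 33.3 and 47.6 CPM in KO 0 hr libraries, and at 92.7, 95.8 and 81.1 CPM in WT 48 hr against 50.3, 42.5 and 35.9 CPM in WT 0 hr libraries. On library totals it was among the genes no longer called in either genotype. The 7 Ndufaf assembly factors all rose. Ndufaf2, a chaperone of the late assembly steps, rose furthest, at 3.14 in KO and 3.25 in WT, and Ndufaf4 followed at 2.70 in KO and 2.60 in WT. Ndufaf3 rose least, at 0.96 in KO and 0.92 in WT, and was not called in either genotype on library totals.

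Complex II, succinate dehydrogenase, joins the tricarboxylic acid (TCA) cycle to the respiratory chain, and its 4 subunits rose by very unequal amounts. Sdhd, one of the membrane anchors, was at 578, 648 and 533 CPM in KO 48 hr against 82.1, 72.3 and 82.5 CPM in KO 0 hr libraries. It was at 477, 514 and 440 CPM in WT 48 hr against 61.4, 72.3 and 59.7 CPM in WT 0 hr libraries. Sdhd had a log2 fold change of 2.89 in both KO and WT (SE 0.12 each, adjusted p = 1.8e-10 and 1.7e-10).

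Sdha, the flavoprotein that oxidises succinate, was at 402, 422 and 395 CPM in KO 48 hr against 198, 268 and 265 CPM in KO 0 hr libraries. It was at 388, 381 and 402 CPM in WT 48 hr against 221, 290 and 234 CPM in WT 0 hr libraries. The times did not overlap, and the log2 fold change was 0.74 in KO (SE 0.13, adjusted p = 0.0002) and 0.65 in WT (SE 0.13, adjusted p = 0.00051), but it turned to -0.08 in KO and -0.23 in WT on library totals. Sdhb, the iron-sulphur subunit, rose by 2.29 in KO and 2.53 in WT, and Sdhc, the other anchor, by 0.97 in KO and 1.16 in WT. On library totals Sdhc was not called in KO (0.15, adjusted p = 0.13).

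These unequal rises moved the ratios between subunits, which do not depend on scaling. Per kilobase, Sdhd was at 3.39 ± 0.22 times Sdha in KO 48 hr against 0.781 ± 0.17 times in KO 0 hr libraries, and at 2.88 ± 0.30 times in WT 48 hr against 0.615 ± 0.036 times in WT 0 hr libraries. Sdhb per Sdha was 2.95 ± 0.13 in KO 48 hr against 1.03 ± 0.24 in KO 0 hr, and 3.52 ± 0.37 in WT 48 hr against 0.961 ± 0.076 in WT 0 hr libraries (SD, n = 3 each). The ranges of the 2 times did not overlap for either ratio.

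**Figure D3:**
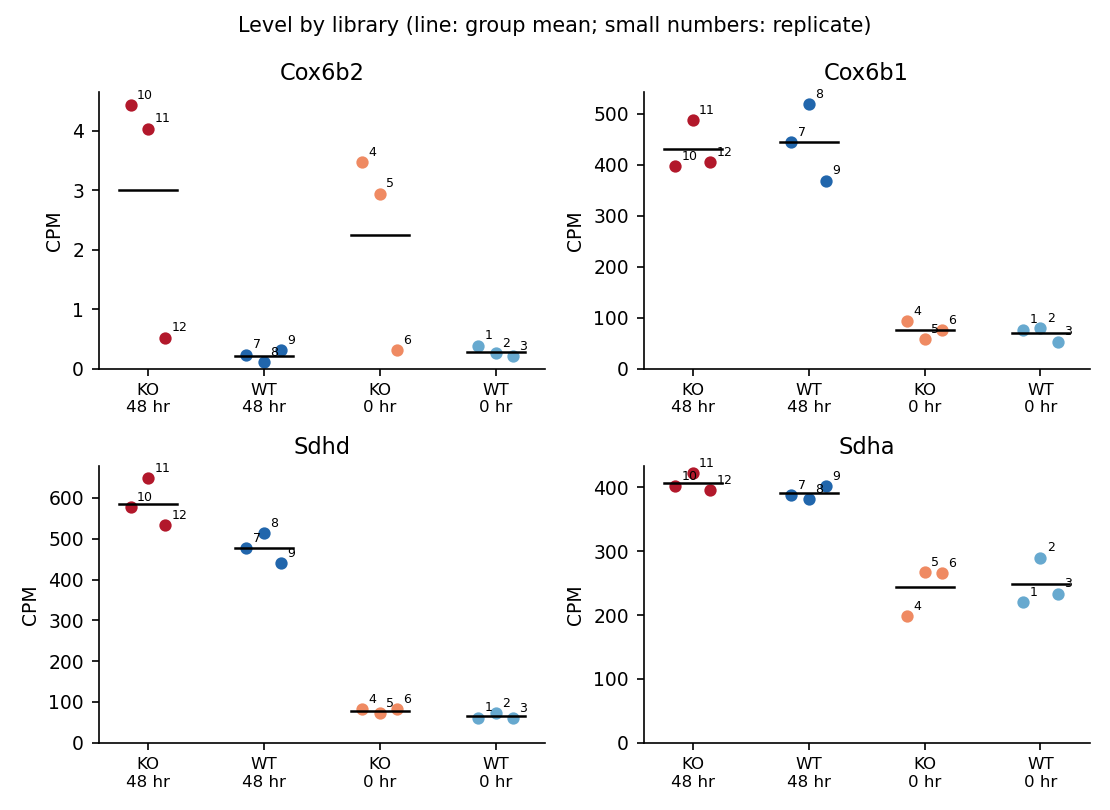
CPM of Cox6b2, Cox6b1, Sdhd and Sdha, with 1 point per library and a line at the group mean; small numbers give the replicate. Sdhd is far higher at 48 hr than at 0 hr, Sdha is higher on this TMM scale but not on library totals, and Cox6b2 is high in 4 of 6 KO libraries and low in KO replicates 6 and 12 and in all WT libraries.

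All 8 complex III members rose. Uqcrc1, a large core protein, rose by 1.31 in KO and 1.35 in WT, and the Rieske iron-sulphur protein Uqcrfs1 by 1.5 in KO and 1.69 in WT. Uqcrc2, the other core protein, rose by 2.60 in KO and 2.71 in WT. Per kilobase, Uqcrc2 was at 1.04 ± 0.14 times Uqcrc1 in KO 48 hr against 0.426 ± 0.028 times in KO 0 hr, and at 1.02 ± 0.10 times in WT 48 hr against 0.397 ± 0.10 times in WT 0 hr libraries (SD, n = 3). The 5 small subunits (Uqcr10, Uqcr11, Uqcrb, Uqcrh and Uqcrq) had a median of 2.64 in KO and 2.90 in WT, and Uqcr10 rose furthest, at 2.88 in KO and 3.23 in WT.

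Complex IV, cytochrome c oxidase, has general subunits that most tissues use and paralogues that are known from particular tissues. All 10 general subunits rose, with a median of 2.27 in KO and 2.44 in WT. Cox4i1, which is needed for assembly, rose by 1.5 in KO and 1.77 in WT, Cox5a by 2.00 in KO and 2.20 in WT, and Cox5b by 2.03 in KO and 2.19 in WT. Cox6a1 rose least among them, at 1.22 in KO and 1.31 in WT, and Cox8a by 1.84 in KO and 1.95 in WT. Cox6c was at 2.85 in KO and 3.27 in WT on the same log2 scale. Cox7b and Cox7a2 rose furthest, at 3.24 and 3.07 in KO and at 3.44 and 3.45 in WT. Cox7a2 was at 305, 337 and 283 CPM in KO 48 hr against 46.1, 28.2 and 36.0 CPM in KO 0 hr libraries, and at 404, 464 and 328 CPM in WT 48 hr against 39.4, 40.4 and 29.3 CPM in WT 0 hr libraries.

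Cox7a2l, which joins complexes III and IV into supercomplexes, rose by only 0.69 in KO and 0.88 in WT, and moved to -0.12 in KO and -0.0018 in WT on library totals. Per kilobase, Cox7a2 was at 4.55 ± 0.13 times Cox7a2l in KO 48 hr against 0.876 ± 0.12 times in KO 0 hr, and at 5.30 ± 0.64 times in WT 48 hr against 0.892 ± 0.074 times in WT 0 hr libraries (SD, n = 3).

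The tissue paralogues stayed below 5 CPM in every library. Cox6a2 and Cox7a1, the heart and muscle forms, were at 1.38 to 2.59 and 0.517 to 0.686 CPM in KO 48 hr and at 0.588 to 1.27 and 0.333 to 0.729 CPM in WT 48 hr libraries, and at 0.293 CPM or below in all 0 hr libraries. Both were called higher at 48 hr in both genotypes, at 3.59 and 1.88 in KO and 3.78 and 3.31 in WT, although the Cox7a1 call was lost in KO on library totals (1.08, adjusted p = 0.074). Cox7b2 was at 0.0528 CPM or below in KO 48 hr and 0.123 to 0.191 CPM in KO 0 hr libraries, a called fall of 2.49 on the log2 scale that rests on few counts. That call was lost in DESeq2 (adjusted p = 0.077), with a 1.5-fold minimum (0.052) and with no low-count filter (0.073), and held in 5 of the 12 fits that left out 1 library (adjusted p of 0.031 to 0.12).

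Complex V, the ATP synthase, held the highest values of the set. Atp5b, the catalytic beta subunit, led per kilobase in every group, at 1542 CPM per kilobase in KO 48 hr and 331 in KO 0 hr, and at 1545 in WT 48 hr and 315 in WT 0 hr. It was at 2904, 3107 and 2854 CPM in KO 48 hr against 560, 666 and 675 CPM in KO 0 hr libraries. It was at 3038, 2913 and 2931 CPM in WT 48 hr against 527, 747 and 537 CPM in WT 0 hr libraries. Its log2 fold change was 2.22 in KO and 2.29 in WT (SE 0.14 each, adjusted p = 7.1e-09 and 4.9e-09).

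Within complex V the 5 subunits of the F1 head, where ATP is made, had a median of 1.70 in KO and 1.86 in WT. The 3 c-ring genes Atp5g1, Atp5g2 and Atp5g3, which encode the same mature protein, had 2.19 in KO and 2.33 in WT. The 4 stalk genes had 2.51 in KO and 2.67 in WT, and the 3 small membrane subunits 2.86 in KO and 2.98 in WT. Atp5c1, the rotating gamma shaft, rose by 2.39 in KO and 2.58 in WT, and Atp5o, which ties the head to the stalk, by 2.56 in KO and 2.69 in WT. Atp5j2, a small membrane subunit, rose furthest in the complex, at 2.97 in KO and 3.36 in WT. Atp5a1, the alpha subunit that alternates with Atp5b in the head, rose by 1.70 in KO and 1.86 in WT. Atp5b per Atp5a1 by kilobase was 2.37 ± 0.054 in KO 48 hr against 1.65 ± 0.076 in KO 0 hr, and 2.42 ± 0.081 in WT 48 hr against 1.78 ± 0.12 in WT 0 hr libraries (SD, n = 3). The c-ring genes kept their order per kilobase, with Atp5g3 at 617 and 629, Atp5g2 at 470 and 478, and Atp5g1 at 111 and 112 CPM per kilobase in KO and WT at 48 hr.

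Atp5sl was the exception. The product of this gene is now known as DMAC2, a factor in building the distal arm of complex I, and not as an ATP synthase subunit. It was at 19.5, 18.9 and 25.5 CPM in KO 48 hr against 63.6, 47.9 and 79.4 CPM in KO 0 hr libraries. It was at 26.0, 28.3 and 28.8 CPM in WT 48 hr against 72.6, 63.1 and 83.8 CPM in WT 0 hr libraries. All 48 hr values lay below all 0 hr values, with a log2 fold change of -1.58 in KO (SE 0.18, adjusted p = 3.2e-06) and -1.40 in WT (SE 0.18, adjusted p = 9.3e-06), and -2.39 in KO and -2.30 in WT on library totals. Atp5s, a coupling factor, rose by 0.95 in KO and 1.14 in WT and was not called on library totals.

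Members with short transcripts had the larger changes. Over the 84 members at 5 CPM or more, the log2 fold change had a Pearson correlation with log2 transcript length of -0.28 in KO and -0.34 in WT, which is across genes and not across samples. The 42 members of 772 bases or fewer had a median of 2.18 in KO and 2.41 in WT, against 1.81 in KO and 1.94 in WT for the 42 longer ones. Over all genes at those lengths the medians were 1.15 in KO and 1.34 in WT for short ones, against 0.05 in KO and 0.00 in WT for long ones. Members also shifted together by library, and the shift was larger for short members except in KO 0 hr replicate 6 and WT 0 hr replicate 2. In KO 0 hr replicate 5 the median member lay 0.34 below its group mean on the log2 scale (0.38 for short and 0.19 for long members), and in KO 0 hr replicate 4 it lay 0.29 above it (0.36 for short and 0.15 for long). The part of transcript length in the rise was not tested.

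For a few members the form of the transcript changed as well, chosen after the values were seen as those with a share of counts that differed by 15 points or more between the times in both genotypes, in genes that averaged 5 CPM or more in at least 1 group. They were 6 of 35 members with several transcripts, and p-values were adjusted over 36629 transcripts. The share of all genes that pass the same cut was not computed, so this count has no reference. Variant 2 of Ndufv3, a complex I subunit made as a long and a short form, held 68.2% of the gene's counts in KO 48 hr against 42.0% in KO 0 hr, and 70.9% in WT 48 hr against 44.4% in WT 0 hr libraries. Variant 2 rose by 2.34 in KO and 2.49 in WT, and variant 1 by 0.81 in KO and 0.89 in WT. Variant 2 of Atp5g1 held 34.9% in KO 48 hr against 12.7% in KO 0 hr, and 30.7% in WT 48 hr against 10.9% in WT 0 hr libraries. In Atp5sl it was variant 2 that fell, by 2.51 in KO and 2.62 in WT on the log2 scale, while variant 1 had -0.39 in KO (adjusted p = 0.18) and 0.12 in WT (adjusted p = 0.68). The remaining 3 genes were Atp5s, Ndufaf6 and Ndufs1.

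**Figure D4:**
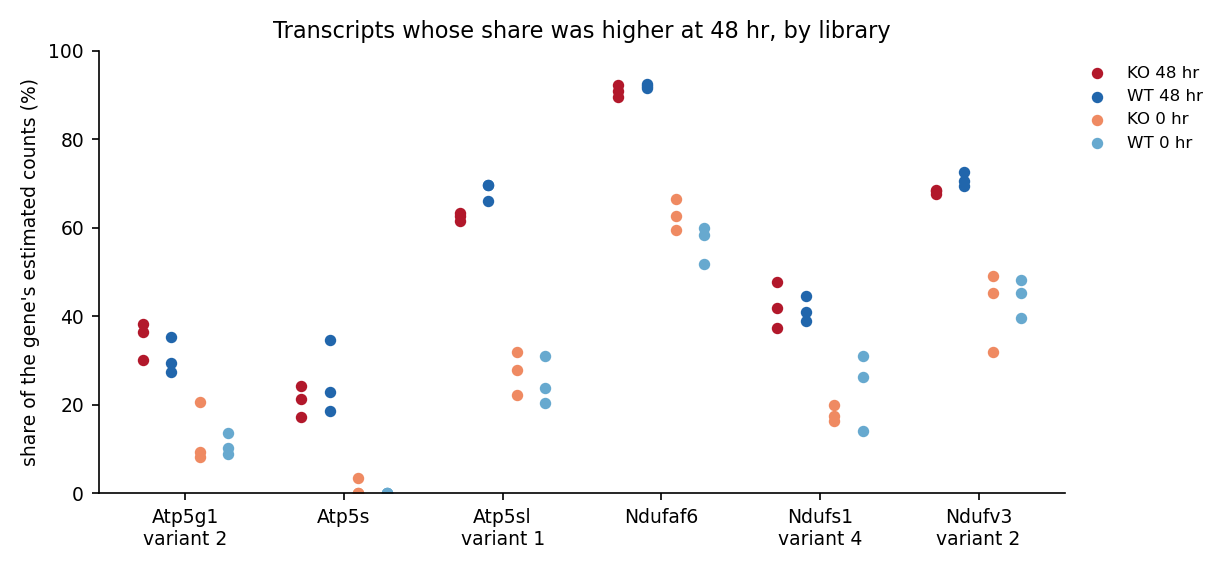
Share of each gene's estimated counts held by the transcript whose share was higher at 48 hr, with 1 point per library. In these 6 genes, chosen for such a difference, every 48 hr library lies above every 0 hr library of its genotype.

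Around the complexes, genes that make, import or serve them were higher too, with exceptions. All 30 import genes rose in both genotypes, with a median log2 fold change of 2.31 in KO and 2.49 in WT (28 in KO and 29 in WT on library totals). All 21 TCA cycle genes rose, with 1.62 in KO and 1.73 in WT (19 in each on library totals). Of 48 tested assembly factors outside the rule, 44 rose and 1 fell in each genotype, but 27 rose and 3 fell in KO and 30 rose and 5 fell in WT on library totals. Ttc19, which acts on the Rieske protein, was the factor that fell with TMM, and it fell on library totals too. Cytochrome c (Cycs) was at 952 ± 53.7 CPM in KO 48 hr against 85.8 ± 14.2 in KO 0 hr, and at 1134 ± 141 CPM in WT 48 hr against 90.4 ± 10.4 in WT 0 hr (SD, n = 3), a log2 fold change of 3.47 in KO and 3.65 in WT. Of 21 tested genes of coenzyme Q and cytochrome c, 17 rose and 3 fell in KO and 16 rose and 3 fell in WT, against 10 rising and 6 falling in each genotype on library totals.

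The regulators went both ways, and their counts moved with the scaling, as those over all genes did. Of 17 tested, 9 rose and 3 fell in KO and 8 rose and 4 fell in WT, but 4 rose and 9 fell in KO and 2 rose and 10 fell in WT on library totals, where 19.1% of all genes rose and 59.3% fell in KO and 18.8% rose and 62.4% fell in WT. Gabpa, the DNA-binding part of GABP, rose by 1.23 in KO and 1.41 in WT, and Myc, a growth regulator, by 1.73 in KO and 1.80 in WT, and both were also called higher on library totals. Exons of Gabpa overlap those of the member Atp5j on the opposite strand, so reads of this pair cannot be told apart. Nrf1 rose by 0.81 in KO and 0.71 in WT, but had -0.01 in KO and -0.18 in WT on library totals and was not called there. Ppargc1a, a coactivator of mitochondrial genes in muscle and fat, fell by 1.79 in KO and 2.26 in WT on the log2 scale, and Esrra, its partner receptor, by 0.68 in KO and 0.76 in WT. In mitochondrial DNA upkeep 13 of 19 rose and 3 fell in both genotypes (8 and 6 in KO and 9 and 8 in WT on library totals), and Tk2, a kinase for nucleotides of that DNA, fell by 2.74 in KO and 2.49 in WT. In ATP exchange, uncoupling and cristae 16 of 20 rose and 1 fell in KO, and 17 rose and 2 fell in WT (15 and 3 in KO and 15 and 4 in WT on library totals).

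Few of these genes were called between KO and WT at 48 hr. A single member, Cox6b2, was called higher and none lower, against 1.47% of all genes called higher and 0.544% called lower. Another 3 members passed an unadjusted p of 0.05 (against 14.4% of all genes), Ndufaf7 lower and Sdhd and Cox6a2 higher. DESeq2 called 2 members, Cox6b2 and Ndufaf7 (5.54% of all genes), and limma-voom called none (1.00%). The median log2 fold change was -0.11, and 14 of 88 members were above 0. It moved to -0.25 without WT 48 hr replicate 9 (7 above 0) and -0.20 without KO 48 hr replicate 11 (6 above 0), and to -0.06 without WT 48 hr replicate 8 (22 above 0) and -0.07 without KO 48 hr replicate 12 (27 above 0). Libraries did not overlap in 3 members that were higher (10.7% of all genes) and in 10 that were lower (9.53%).

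Cox6b2, known in mammals as the testis form of a subunit that lies where the monomers of complex IV meet, was at 4.43, 4.04 and 0.519 CPM in KO 48 hr against 0.232, 0.108 and 0.307 CPM in WT 48 hr libraries. At 0 hr it was at 3.47, 2.94 and 0.309 CPM in KO against 0.386, 0.257 and 0.211 CPM in WT libraries. KO replicates 6 and 12 were low and lay close to WT. The log2 fold change was 3.78 at 48 hr (SE 0.89, adjusted p = 0.047, interval at 95% 1.85 to 5.70) and 2.96 at 0 hr (SE 0.83, adjusted p = 0.13, interval at 95% 1.16 to 4.76). Without KO 0 hr replicate 6 and KO 48 hr replicate 12 together, a choice made after seeing the data, it was 4.27 at 48 hr (adjusted p = 5.6e-05) and 3.48 at 0 hr (adjusted p = 0.00022). The 48 hr call was lost when any 1 of 10 libraries was left out, and held without KO 0 hr replicate 6 or without KO 48 hr replicate 12 (adjusted p of 0.006 to 0.2 over the 12 fits). The general form Cox6b1 was at 430 ± 49.9 CPM in KO 48 hr and 444 ± 75.4 CPM in WT 48 hr (SD, n = 3), with a log2 fold change of -0.05.

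Some markers of other cells moved with Cox6b2 across the KO libraries and others did not. Most of the level of the T cell list was Lck, which encodes a kinase of antigen receptor signalling. The list (6 of 6 genes detected in each group) summed to 111, 110 and 43.7 CPM in KO 48 hr against 37.5 to 41.7 CPM in WT 48 hr libraries, and to 115, 118 and 57.8 CPM in KO 0 hr against 58.7 to 67.2 CPM in WT 0 hr libraries. Lck alone was at 110, 108 and 41.9 CPM in KO 48 hr against 35.3, 35.2 and 39.4 CPM in WT 48 hr libraries. The defining T cell markers Cd3e and Cd3g were at or near 0 at 48 hr, at most 0.528 CPM in KO and 0.361 CPM in WT libraries. At 0 hr Cd3e was at 4.86, 3.79 and 0.647 CPM in KO against 1.69, 0.969 and 1.18 CPM in WT libraries, and Cd3g was at 3.11, 2.74 and 0.573 CPM in KO against 0.877, 1.26 and 1.35 CPM in WT libraries. Cd4, Cd3d and Cd8a did not follow Cox6b2 at 48 hr. In KO 48 hr libraries Cd4 was at 0.271, 0.1319 and 0.6223 CPM, and Cd3d at 0.8375, 0.6331 and 0.752 CPM. Cd8a was at 0.2463, 1.055 and 0.3112 CPM in these libraries. The erythroid list was at 3366, 278 and 847.3 CPM in KO 0 hr libraries, lowest in replicate 5. The NK cell list (4 of 4 genes detected in each group) summed to 5.49, 8.60 and 2.39 CPM in KO 48 hr against 1.34 to 2.21 CPM in WT 48 hr libraries, with 1 gene called higher. The myeloid list was at 21.2, 35.1 and 14.8 CPM in the same KO libraries, against the 10.9 to 12.3 CPM of WT 48 hr given above. In the T cell, NK cell and myeloid lists KO replicate 12 was the KO 48 hr library nearest to WT. The erythroid list went the other way, with replicate 12 farthest from WT. It was at 13.3, 6.07 and 4.80 CPM in KO 48 hr against 10.6 to 13.4 CPM in WT 48 hr libraries. The part of such cells in the values of Cox6b2 was not tested.

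Ndufaf7, which methylates a core subunit during assembly of complex I, was at 33.3, 28.0 and 46.3 CPM in KO 48 hr against 57.6, 54.5 and 50.5 CPM in WT 48 hr libraries. The groups did not overlap, and KO replicate 12 again lay nearest to WT. Its log2 fold change was -0.59 (SE 0.19, adjusted p = 0.14, interval at 95% -1.0 to -0.19) and was not called. It was -0.65 in DESeq2 (adjusted p = 0.027), -0.82 without KO 48 hr replicate 12 (adjusted p = 0.02) and -0.82 without both KO libraries (adjusted p = 0.0041).

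Sdhd differed the other way, with the KO libraries above WT at 48 hr by a log2 fold change of 0.30 (SE 0.11, adjusted p = 0.23, interval at 95% 0.05 to 0.54), not called. Atp5b averaged 2955 ± 134 CPM in KO 48 hr and 2961 ± 67.6 CPM in WT 48 hr (SD, n = 3 each), with an interval at 95% of -0.29 to 0.29 for the log2 fold change. For Ndufs1 that interval ran from -0.17 to 0.26 and for Uqcrc1 from -0.21 to 0.16. Differences inside these bounds remain possible. The 3 members on the X chromosome, Ndufa1, Ndufb11 and Cox7b, had -0.08, -0.18 and -0.30, none of them called.

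At 0 hr no member was called (0.680% of all genes were called higher and 0.429% lower). Unadjusted p fell below 0.05 in 5 members (10.7% of all genes), all higher in KO: Cox6b2, Cox7a1, Uqcrfs1, Sdhd and Sdhc. DESeq2 called Cox6b2 alone (3.40% of all genes) and limma-voom none (1.27%). The median was 0.13 and 75 of 88 members lay above 0, but single libraries decided this. It was -0.03 with 37 above 0 without KO 0 hr replicate 4 and -0.01 with 42 above 0 without WT 0 hr replicate 3, against 0.26 without KO 0 hr replicate 5 and 0.20 without WT 0 hr replicate 2. Libraries did not overlap in 3 members that were higher (Cox7a1, Sdhc and Uqcrfs1, against 7.02% of all genes) and in none that were lower (7.92%). Uqcrfs1 was at 97.7, 76.0 and 73.5 CPM in KO 0 hr against 68.5, 68.6 and 61.0 CPM in WT 0 hr libraries, a log2 fold change of 0.32 (SE 0.12, adjusted p = 0.31).

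**Figure D5:**
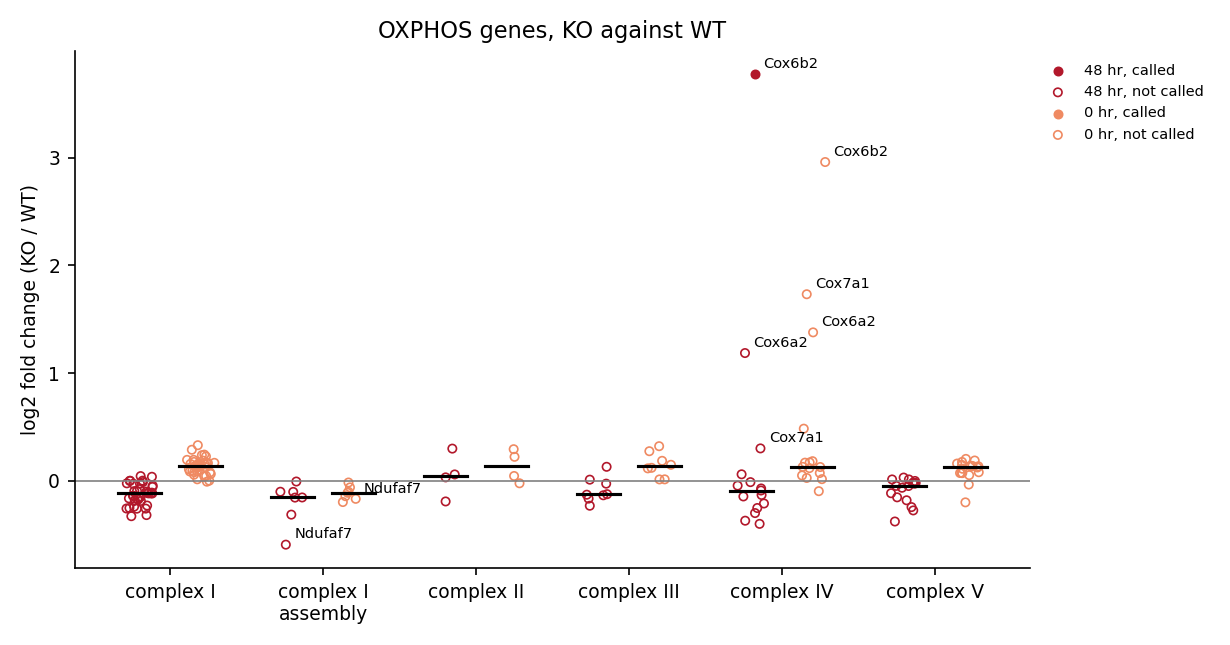
Log2 fold change between KO and WT of each tested member by complex, 48 hr left of 0 hr, with a black line at the median and filled points for adjusted p below 0.05 in edgeR's quasi-likelihood test. Most members lie within 0.4 of 0, the median is -0.11 at 48 hr and 0.13 at 0 hr (-0.03 without KO 0 hr replicate 4), and the called point is Cox6b2 at 48 hr.

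The change between 0 hr and 48 hr with LPS and IL-4 did not differ detectably between genotypes in any member. The interaction, taken as the KO change minus the WT change, was called in no member in edgeR (0.0680% of all genes were called higher and 0.0471% lower), in DESeq2 (1.16%) or in limma-voom (0.0889%). No member had an unadjusted p below 0.05 (8.61% of all genes). The median was -0.20 and 6 of 88 members lay above 0, and its size turned on single libraries. It was -0.09 without KO 0 hr replicate 4 (21 above 0) and -0.11 without WT 0 hr replicate 3 (17 above 0), and -0.35 without KO 0 hr replicate 5 or WT 48 hr replicate 9 and -0.33 without KO 48 hr replicate 11. Complex I members had the lowest p, led by Ndufb4 at -0.57 (SE 0.28, adjusted p = 0.62, interval at 95% -1.17 to 0.04), and were followed by Ndufb11 at -0.42, Ndufa12 at -0.40, Ndufa13 at -0.43 and Ndufa8 at -0.31. The comparison at 0 hr and the comparison at 48 hr each enter this difference, so its sign and theirs are not separate evidence.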

How the data were processed

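RNA-seq of mouse splenic B cells was analysed in 12 libraries, 3 in each of 4 groups of genotype (KO or WT for Chd4) and time (48 hr with LPS and IL-4, or 0 hr). Per the labels' protocols, cDNA was made with a SMART-Seq v4 kit, which records no strand, and paired-end libraries with a KAPA Hyper kit. The deposited table holds 1 estimated count per transcript and library, in whole numbers. The authors used bcl2fastq 2.20.0.422, Trimmomatic 0.36, Salmon 0.8.2 and DESeq2 1.14.1 with the mm10 build, per the submitters' processing notes.

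The table's 63759 transcripts gave 32699 gene symbols once trailing spaces had been trimmed from 344 of the names, and counts were added up per symbol. Depth ranged from 39 M to 53.2 M counts (median 51.1 M). After filterByExpr and TMM scaling by the trimmed mean of M values, the 4 groups were fitted together in edgeR 4.0.16 (R 4.3.3) with the robust quasi-likelihood F test and 8 residual degrees of freedom. Adjusted p-values (Benjamini-Hochberg) cover the 19125 tested genes, and standard errors were taken from the F statistic. Sampling depth limits genes near 0 counts. Transcript lengths, positions and exon overlaps are from GENCODE M21 on mm10, and promoters from RefSeq on GRCm38.p6. The fit was also run on simulated data in which few genes changed, as many up as down. The time contrasts here differ from that setting, so it is no check on their scaling, and its outcome is not given. Figures were drawn with matplotlib 3.10.9.

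The members, the lists of related genes and the naming rule were chosen with earlier results of these data known. The text names a standing set of 20 subunits, the tissue isoform sets, the called members or the 5 with the lowest p in genotype contrasts, and up to 3 members per complex with the largest rise or fall over time at 5 CPM or more. Members named outside it were chosen after their values were seen. Alternatives were DESeq2 1.42.0, limma-voom 3.58.1, other scalings and filters, separate fits of each contrast, a 1.5-fold minimum and leaving out each library. Leaving out KO replicates 6 and 12 together and fitting each transcript as its own feature were added after the data were seen.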

Additional observations from a re-analysis of the deposited data

How the results depend on the processing

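Of 198 gene results and 4500 alternatives, the direction of a called change over time reversed in 5. On library totals, Sdha over time had -0.0776 in KO and -0.229 in WT and Cox7a2l had -0.12 in KO and -0.0018 in WT, and with upper-quartile scaling Sdha had -0.0166 in WT. Another 166 changes of sign were in differences called in neither fit. Counts of members called over time, 85 higher in each genotype, stayed within 1.5 times in every alternative run. The count for KO against WT at 0 hr, 0 in edgeR, was 1 in DESeq2 and without KO 0 hr replicate 6 and KO 48 hr replicate 12 together, and 0 to 1 when each library was left out. The count at 48 hr, 1 in edgeR, was 0 with a 1.5-fold minimum, in limma-voom, with no low-count filter and with relative log expression scaling. It was 2 in DESeq2 and without both KO libraries, and 0 to 2 when each library was left out. The cause was not tested. The interaction count was 0 in every alternative. No paired analysis was possible because the replicate numbers 1 to 12 are all different. KO replicates 6 and 12 were each the lowest KO library of their time in Cox6b2 and Lck, and the labels do not say whether libraries of the 2 times share a source. Genes under about 1 CPM, such as Cox6b2 in WT, rest on few counts.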

Other observations

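Among the neighbours of the oxidative phosphorylation genes, Ckb, the brain-type creatine kinase that buffers ATP, was the one listed gene outside the set called between genotypes. It was at 25.4 ± 14.8 CPM in KO 48 hr against 5.51 ± 0.355 CPM in WT 48 hr libraries (SD, n = 3 each). The log2 fold change was 2.21 (edgeR adjusted p = 0.029, SE 0.47). Whether this call holds in other fits or without single libraries is not given here. At 0 hr Ckb was at 20.1 ± 9.77 CPM in KO against 13.5 ± 5.53 CPM in WT libraries and was not called. Pdss1, which makes the side chain of coenzyme Q, was at 58.9 ± 7.48 CPM in KO 48 hr against 5.13 ± 1.08 CPM in KO 0 hr, and at 58.4 ± 5.42 CPM in WT 48 hr against 5.24 ± 0.179 CPM in WT 0 hr libraries (SD, n = 3 each). Slc25a5, a carrier that exchanges ADP for ATP, was at 1833 ± 199.5 CPM in KO 48 hr against 317 ± 16.7 CPM in KO 0 hr, and at 1895 ± 140 CPM in WT 48 hr against 279 ± 61.5 CPM in WT 0 hr libraries.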
